A study of Mus musculus with 15 samples.

Results

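The 10 genes described here belong to the BCL2 family, which sets whether a cell survives or enters apoptosis, and include common targets of senolytic drugs with their partners. They were chosen by name: Bcl2, Bcl2l1, Bcl2l2, Mcl1, Bcl2a1b, Bcl2a1d, Bak1, Bok, Bid and Bcl2l11, which are 10 of the 54281 Ensembl gene IDs in the deposited table, named through GENCODE M21. Liver RNA was sequenced from 15 male mice of the C57BL6J strain at 9.5 months, with 1 library per animal. The 3 DEN/HFD MCOPPB mice and the 4 DEN/HFD saline mice had received 25 mg/kg of the liver carcinogen diethylnitrosamine (DEN) at 2 weeks of age and were later fed for 32 weeks on a diet with 60% of its energy from lard (HFD), a protocol the labels call a progressive NAFLD model. The 5 chow MCOPPB mice and the 3 chow saline mice had received the vehicle in place of DEN and ate chow throughout. MCOPPB activates the nociceptin/orphanin FQ receptor and is called senolytic in the series title. It was injected intraperitoneally at 5 mg/kg on 5 days of each cycle, followed by 2 days without it, for 3 cycles or 21 days. All controls received saline. DEN and HFD were always given together, so their contributions cannot be told apart.

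BCL2 family proteins act on the outer membrane of mitochondria. The survival proteins BCL2, BCL-XL (from Bcl2l1), BCL-W (Bcl2l2), MCL1 and A1 (the Bcl2a1 copies) bind and restrain the pore-forming effectors, while BH3-only proteins such as BID and BIM (Bcl2l11) release or activate those effectors, after which cytochrome c leaves the mitochondria and caspases are activated. Hepatocytes of the mouse depend on BCL-XL and MCL1, A1 is mainly a gene of blood-derived cells, and BH3-mimetic senolytics bind BCL2, BCL-XL and BCL-W.

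Levels are given as normalized counts, obtained by inverting the deposited log2-scale values, and differences are log2 differences on the deposited scale, where genes with few reads are compressed toward 0. A gene was tested when at least 3 libraries lay 1 or more above the lowest value, which is 22.5 normalized counts, and it was called at a limma adjusted p under 0.05 over all 11568 genes tested. Estimated depth was 9.32 M to 18.7 M reads per library. The first RIN value in the labels was 8.7 to 9.2 in DEN/HFD MCOPPB, 8.4 to 9.2 in DEN/HFD saline, 9.9 to 10 in chow MCOPPB and 9 to 9.7 in chow saline livers, and is the one used as a covariate. The second RIN value was 9.1 to 9.6 in DEN/HFD MCOPPB and 8.9 to 9.2 in DEN/HFD saline livers. It was 8.9 to 9.6 in chow MCOPPB and 8.9 to 9.1 in chow saline livers. The first value of chow MCOPPB livers thus lay above those of all other groups, chow saline included, without overlap, while the second overlapped in all groups. In label order, the second values of the DEN/HFD livers repeat those of the chow livers apart from an additional 9.1. Whether they are separate measurements is not known, so no weight is put on their overlap. The hepatocyte markers, 6 of 6, were tested and abundant in every group. The library DEN/HFD saline 4 stood apart from the other DEN/HFD libraries in genes noted after their values were seen: Cps1, a urea cycle enzyme of hepatocytes, had 24478 normalized counts there, against 7612 to 12181 in the other DEN/HFD libraries and 15899 to 30730 in the chow libraries. Cps1 was 1 of 6 hepatocyte markers. For DEN/HFD against chow with both treatments together, 3 of them had positive and 3 negative differences and 0 were called. The sum of the 6 was 2.80e+06 in DEN/HFD saline 4 and 2.45e+06 to 3.31e+06 over the other DEN/HFD saline livers. Cps1 is a small part of that sum, which therefore cannot show a change of the size seen for Cps1. For DEN/HFD against chow with both treatments together, the values of the Bcl2a1 copies, Apaf1, Bax and Cd68 are given with and without it.

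None of the members passed the threshold in any of 7 comparisons. Of the 10 members, 9 were tested and Bcl2 was below the filter. MCOPPB against saline called 0 of the 9 on chow, where 0.32% of all tested genes were called, and 0 of the 9 under DEN/HFD, where 0.0259% were called. With both diets together, MCOPPB against saline called 0 of the 9 beside 0.372% of all tested genes. DEN/HFD against chow called 0 of the 9 in saline mice (0.0519% of all tested genes), 0 of the 9 in MCOPPB mice (0.571%) and 0 of the 9 with both treatments together (1.32%). The difference between both MCOPPB effects was called for 0 of the 9 members and for 0.0692% of all tested genes. At an unadjusted p under 0.05, limma gave 0 members in MCOPPB against saline on chow (9.06% of all tested genes), under DEN/HFD (4.74%) and with both diets together (6.5%), and 0 members for the difference between both MCOPPB effects (5.9%) and for DEN/HFD against chow in saline mice (11%). Bcl2a1b, Bcl2a1d and Bok had an unadjusted p under 0.05, all with higher values under DEN/HFD, in MCOPPB mice (5.98% of all tested genes in that direction) and with both treatments together (8.64%). With RIN as a covariate, 1 member had a limma unadjusted p under 0.05 in each of these comparisons. Among all 11568 tested genes, in either direction, 1559 did so in MCOPPB mice and 1054 with both treatments together. The MCOPPB and DEN/HFD comparisons share libraries, so their values are set side by side and are not independent of each other.

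Per kilobase of exon, Mcl1 was the most abundant member in 15 of 15 libraries, with a median of 269 normalized counts per kilobase and a range of 198 to 297. Bcl2l1 came next by its median of 51.8, with a range of 26.9 to 58.1 per kilobase, which does not overlap the range of Mcl1. The medians per kilobase then ran from 29.8 for Bak1 and 24.8 for both Bcl2l2 and Bid to 20.5 for Bok, 16.4 for Bcl2a1b, 4.25 for Bcl2l11, 2.95 for Bcl2a1d and 0.979 for Bcl2. From Bcl2l1 downward, each member's range over the 15 libraries overlapped that of its neighbour in the order. Bcl2l1 nevertheless lay above Bak1 in 15 of 15 libraries, whereas Bcl2l2 lay above Bid in 7 of 15, and the 2 cannot be ranked. Bcl2l1 was not second in every library. Bcl2a1b lay above it in DEN/HFD MCOPPB 1 (46.7 against 41.3), DEN/HFD MCOPPB 2 (92.4 against 37.4) and DEN/HFD saline 1 (63.2 against 32.6).

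**Figure D1:**
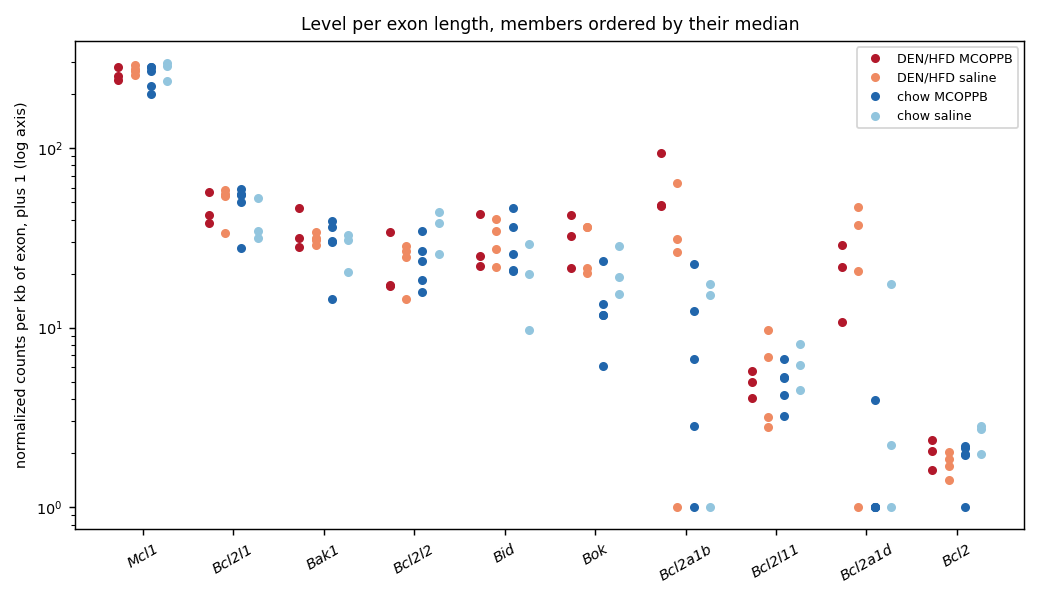
Normalized counts per kilobase of exon (vertical log axis, 1 added to each value so that zeros can be drawn) for the 10 members, ordered by their median from left to right, with 1 point per library and a colour per group. Mcl1 lies at 198 to 297 per kilobase in all libraries, above every other member, and Bcl2 lies lowest by its median.

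Among the survival genes, Mcl1 (ENSMUSG00000038612.16, chr3:95658788-95663176 on the plus strand, GRCm38), which encodes a short-lived survival protein that hepatocytes need, was the steadiest member. It had 856, 961 and 816 normalized counts in the DEN/HFD MCOPPB livers, 917, 873, 983 and 934 in the DEN/HFD saline livers, 920.4, 963, 676, 754 and 962 in the chow MCOPPB livers and 1015, 973 and 800.3 in the chow saline livers. The 4 groups overlapped throughout, the lowest livers being chow MCOPPB 3 and 4, and the coefficient of variation over the 15 libraries was 10.7%, against 24.0% for Bcl2l1 and 35.2% for Bcl2l2. The log2 difference for MCOPPB against saline was -0.07 ± 0.17 (SE) under DEN/HFD, with a 95% interval of -0.42 to 0.27, and -0.12 ± 0.16 on chow, with an interval of -0.45 to 0.22. With both treatments together, DEN/HFD against chow gave 0.02 ± 0.11, with an interval of -0.21 to 0.26. Mcl1 made up 63.4% ± 1.80 (SD, n = 3) of the summed level per kilobase of the 6 survival members in DEN/HFD MCOPPB livers, 68.2% ± 5.91 (n = 4) in DEN/HFD saline livers, 75.8% ± 6.29 (n = 5) in chow MCOPPB livers and 74.9% ± 7.30 (n = 3) in chow saline livers. In the same group order, the mean of Mcl1 per kilobase was 257, 271, 250 and 272. That of Bcl2a1b was 62.0, 29.7, 8.08 and 10.2, and that of Bcl2a1d 19.4, 25.5, 0.590 and 5.93. Bcl2l1 had 44.8, 49.4, 48.5 and 38.6, and Bcl2l2 had 21.8, 22.5, 22.7 and 35.1. The share thus also moves with the Bcl2a1 copies, which are mainly genes of blood-derived cells, and is no measure of hepatocytes alone. These shares were not tested.

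Bcl2l1 (ENSMUSG00000007659.18, chr2:152780668-152831728 on the minus strand), which encodes BCL-XL, a main target of BH3-mimetic senolytics, had 189, 172 and 255 normalized counts in the DEN/HFD MCOPPB livers, against 149.6, 250.1, 244 and 263 in the DEN/HFD saline livers. On chow it had 248, 266, 225, 123 and 249.8 in the MCOPPB livers, against 238, 154 and 139.9 in the saline livers. Both pairs of groups overlapped, and DEN/HFD saline 1 and chow MCOPPB 4 were each the lowest of their group by a wide gap. The log2 difference for MCOPPB against saline was -0.10 ± 0.22 under DEN/HFD and 0.23 ± 0.21 on chow (limma adjusted p = 1.00 and 0.783), and that for DEN/HFD against chow with both treatments together was 0.09 ± 0.15.

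Bcl2l2 (ENSMUSG00000089682.10, chr14:54883377-54888234 on the plus strand), which encodes BCL-W, had 71.9, 147 and 72.8 normalized counts in the DEN/HFD MCOPPB livers, against 60.0, 114, 105 and 123 in the DEN/HFD saline livers. On chow it had 99.8, 77.8, 115, 65.5 and 149 in the MCOPPB livers, against 166, 111 and 193 in the saline livers. Of the chow MCOPPB livers, 3 lay below all chow saline livers and the other 2 lay within their range. With a log2 difference of -0.41 ± 0.21 and a 95% interval of -0.85 to 0.03, it had the smallest p of any member for MCOPPB against saline on chow (limma unadjusted p = 0.0668, adjusted p = 0.604). With RIN as a covariate that difference was 0.02. Under DEN/HFD the difference for MCOPPB against saline was -0.04 ± 0.22.

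Bcl2 (ENSMUSG00000057329.7, chr1:106538178-106714274 on the minus strand), the founding member, stayed under the filter in all 15 libraries and has no test. It had 9.56, 12.6 and 5.68 normalized counts in the DEN/HFD MCOPPB livers and 9.31, 3.80, 7.89 and 6.30 in the DEN/HFD saline livers. On chow it had 8.96, 10.3, 8.76, 0 and 11 in the MCOPPB livers and 16.8, 8.90 and 15.9 in the saline livers. The highest values were those of chow saline 1 and 3. The mean was 9.29 ± 3.48 in DEN/HFD MCOPPB, 6.83 ± 2.36 in DEN/HFD saline, 7.81 ± 4.46 in chow MCOPPB and 13.9 ± 4.31 in chow saline livers (SD), and the range of each group overlapped those of the others.

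**Figure D2:**
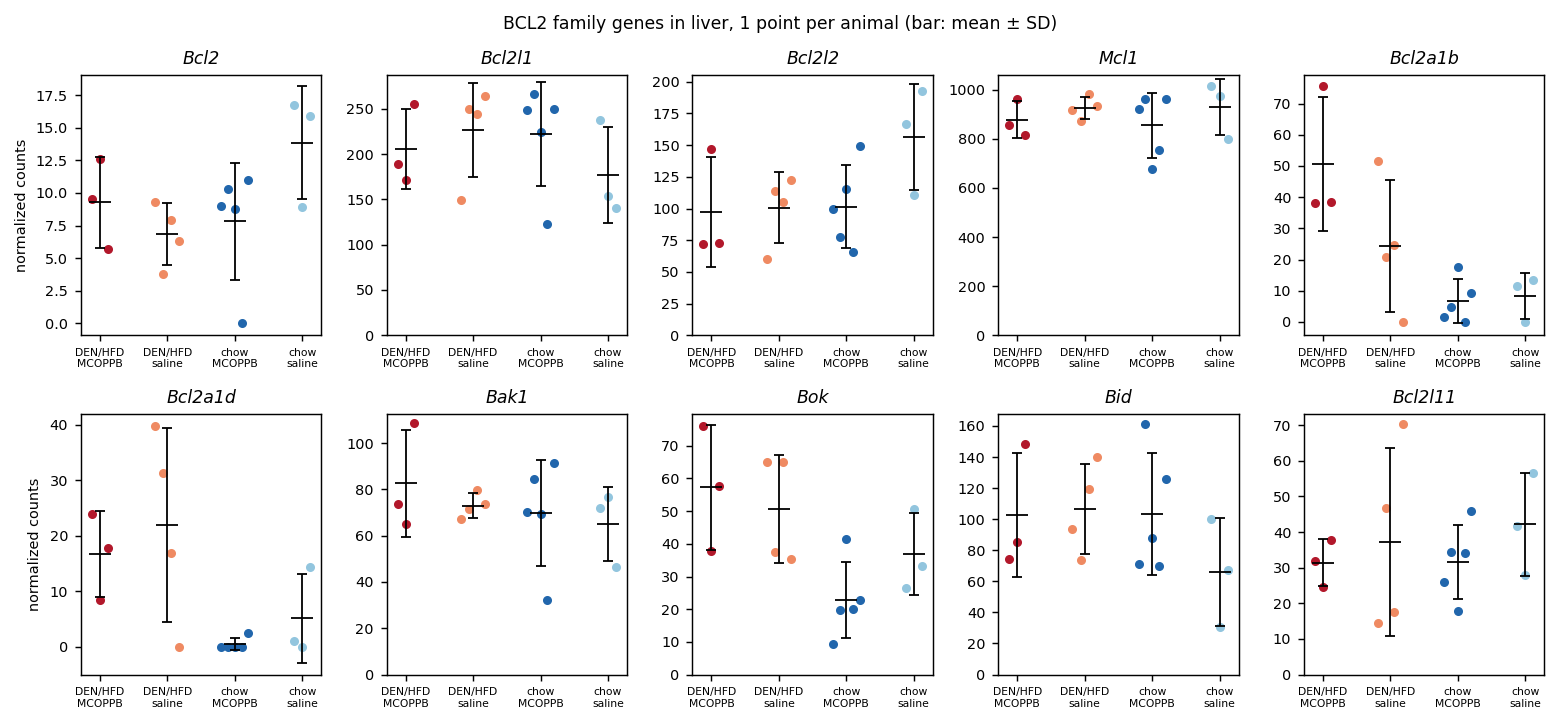
Normalized counts (vertical axis, linear) of the 10 members in each liver, with 1 panel per gene, 1 point per animal, and horizontal bars with error bars for the mean ± SD of each group. Mcl1 stays between 676 and 1015 in every group, while the highest values of Bcl2a1b and Bcl2a1d are those of DEN/HFD livers and both are at 0 in DEN/HFD saline 4. For Bcl2a1d, chow saline 3 (14.3) lies above DEN/HFD MCOPPB 2 (8.41).

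In DEN/HFD against chow, the largest differences among the members, in MCOPPB mice and with both treatments together, were those of Bcl2a1b and Bcl2a1d, copies of the A1 gene on chromosome 9 that mice carry as a small cluster and that are induced by NF-kB in leukocytes. Bcl2a1b (ENSMUSG00000089929.1) lies at chr9:89199209-89207827 on the plus strand and Bcl2a1d (ENSMUSG00000099974.1) at chr9:88723285-88731914 on the minus strand (GRCm38). Their coding sequences are shown because their likeness limits how far reads can be assigned to either copy. The first 300 of 519 coding bases (GENCODE M21) are given, at chr9:89199360-89199659 and chr9:88731420-88731719, and capitals mark the bases that differ between the copies.
Bcl2a1b: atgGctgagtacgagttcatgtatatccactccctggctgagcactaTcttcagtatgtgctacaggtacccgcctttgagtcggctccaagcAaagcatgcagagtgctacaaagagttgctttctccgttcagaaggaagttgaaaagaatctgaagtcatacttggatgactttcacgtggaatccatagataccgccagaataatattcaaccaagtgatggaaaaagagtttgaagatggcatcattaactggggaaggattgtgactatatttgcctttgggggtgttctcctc
Bcl2a1d: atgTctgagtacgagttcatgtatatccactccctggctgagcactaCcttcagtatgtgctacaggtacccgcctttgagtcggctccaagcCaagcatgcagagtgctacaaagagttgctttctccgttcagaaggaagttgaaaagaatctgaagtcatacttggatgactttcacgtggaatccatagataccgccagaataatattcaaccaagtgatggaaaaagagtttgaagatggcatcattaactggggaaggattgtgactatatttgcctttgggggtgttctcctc
Over the whole coding sequence 6 bases differ (98.8% identity): G4T, T48C, A94C, G312A, C381G and T490A, with positions counted from 1 at the A of the start codon and the base of Bcl2a1b first. Of the 743 windows of 75 bases in the Bcl2a1b transcript, the read length of the study, 43.5% also occur in Bcl2a1d. Of the windows in Bcl2a1d, 67.6% occur in at least 1 other copy. How reads matching several copies were counted is not given in the sources used here, so the split between the copies is uncertain and their sum is given too.

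The stretches just upstream of both copies are nearly the same as well, and whether this bears on the levels of the copies was not tested. The stretches are read from RefSeq promoter windows (GRCm38.p6) at chr9:89199023-89199164 on the plus strand and chr9:88731915-88732050 on the minus strand, and capitals mark what differs.
Bcl2a1b upstream: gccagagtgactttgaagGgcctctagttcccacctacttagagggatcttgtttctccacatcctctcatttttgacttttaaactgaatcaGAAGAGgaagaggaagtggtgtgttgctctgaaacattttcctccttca
Bcl2a1d upstream: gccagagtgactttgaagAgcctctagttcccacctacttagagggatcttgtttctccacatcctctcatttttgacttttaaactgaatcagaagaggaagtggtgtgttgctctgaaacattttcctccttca
Of 142 aligned positions, 135 are identical, 1 is a substitution and 6 are bases that Bcl2a1d lacks. Both stretches hold GAGGAAGT, the core of the motif of PU.1, a transcription factor of myeloid cells and B cells. On either strand of the RefSeq windows this motif is present for 3.69% of 27025 genes, and among the members for Bcl2a1b, Bcl2a1d and Bak1. An NF-kB motif was found among the members for Bcl2l1 alone, which has 3 windows, whereas Bcl2a1b and Bcl2a1d have 1 each, beside 9.55% of genes. The windows are 300 bases long, so a missing match does not exclude sites elsewhere. These matches are descriptions of the letters in these windows.

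Bcl2a1b had 38.1, 75.5 and 38.3 normalized counts in the DEN/HFD MCOPPB livers, 51.6, 20.8, 24.8 and 0 in the DEN/HFD saline livers, 1.5, 4.64, 17.6, 0 and 9.32 in the chow MCOPPB livers and 11.6, 0 and 13.4 in the chow saline livers. All DEN/HFD livers but DEN/HFD saline 4 lay above all chow livers. Bcl2a1d had 23.9, 8.41 and 17.8 normalized counts in the DEN/HFD MCOPPB livers, 39.8, 31.3, 16.9 and 0 in the DEN/HFD saline livers, 0, 0, 0, 0 and 2.55 in the chow MCOPPB livers and 1.05, 0 and 14.3 in the chow saline livers. Here chow saline 3 lay above DEN/HFD MCOPPB 2, and the other chow livers lay below every DEN/HFD liver except DEN/HFD saline 4. The third copy, Bcl2a1a, was below the filter, and the sum of the 3 copies was 70.0, 85.6 and 66.4 in the DEN/HFD MCOPPB livers, 119, 58.7, 53 and 2.14 in the DEN/HFD saline livers, 9.79, 4.64, 17.6, 11.9 and 15.3 in the chow MCOPPB livers and 12.6, 0 and 35.3 in the chow saline livers. In the sum, too, DEN/HFD saline 4 was the only DEN/HFD liver within the range of the chow livers.

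With both treatments together, DEN/HFD exceeded chow by a log2 difference of 0.70 ± 0.22 (SE) for Bcl2a1b, with a 95% interval of 0.24 to 1.16 and a limma adjusted p of 0.118. For Bcl2a1d the difference was 0.64 ± 0.19, with an interval of 0.25 to 1.04 and an adjusted p of 0.0952. Neither passed the threshold. Without DEN/HFD saline 4 both were called, with differences of 0.85 ± 0.18 for Bcl2a1b (adjusted p = 0.0137) and 0.78 ± 0.15 for Bcl2a1d (adjusted p = 0.00917), and 3.98% of all tested genes were then called, against 1.32% with it. That library had 0 normalized counts of both copies, so leaving it out was bound to raise the differences. It was the only one of the 15 libraries whose omission led to a call. Over all omissions, the limma adjusted p reached 0.254 for Bcl2a1b and 0.215 for Bcl2a1d. With array weights, which weigh down more variable libraries, Bcl2a1d was called (0.69, adjusted p = 0.0415) and Bcl2a1b was not (0.69, adjusted p = 0.0628), beside 3.39% of all tested genes. With RIN as a covariate the differences were 0.25 for Bcl2a1b (adjusted p = 0.844) and 0.59 for Bcl2a1d (adjusted p = 0.584). Every library in which either copy reached the filter was a DEN/HFD library, so both entered the test through the groups in which they were high. The sizes depend on the scale: on log2(normalized count + 1) the differences were 2.32 for Bcl2a1b and 2.86 for Bcl2a1d.

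Within treatments, the difference for DEN/HFD against chow in MCOPPB mice was 0.99 ± 0.29 for Bcl2a1b (adjusted p = 0.150) and 0.78 ± 0.26 for Bcl2a1d (adjusted p = 0.221), and both copies had groups that did not overlap, as did 4.63% of all tested genes in that direction. The first RIN value did not overlap between those groups either. Over the 9 other settings, RIN as a covariate and other log scales among them, the difference for Bcl2a1b ran from 0.52 to 3.33 (limma adjusted p 0.0516 to 0.665). In saline mice the difference for DEN/HFD against chow was 0.37 ± 0.31 for Bcl2a1b (adjusted p = 0.710) and 0.50 ± 0.28 for Bcl2a1d (adjusted p = 0.540). Without DEN/HFD saline 4 the values in saline mice were 0.66 for Bcl2a1b (adjusted p = 0.308) and 0.78 for Bcl2a1d (adjusted p = 0.163). Under DEN/HFD, Bcl2a1b had the largest difference of any member for MCOPPB against saline, 0.57 ± 0.31 with a 95% interval of -0.08 to 1.22 (unadjusted p = 0.0800, adjusted p = 1.00), which became 0.28 without DEN/HFD saline 4. That for Bcl2a1d was 0.01 ± 0.28, and -0.27 without that library. On chow the differences for MCOPPB against saline were -0.05 ± 0.29 for Bcl2a1b and -0.27 ± 0.26 for Bcl2a1d. The difference between both MCOPPB effects was 0.62 ± 0.43 for Bcl2a1b (adjusted p = 0.873), and 0.33 without DEN/HFD saline 4 (adjusted p = 0.966).

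Markers of other cell types are given beside the Bcl2a1 copies. Cd68, a lysosomal glycoprotein of macrophages, had 122, 202 and 179 normalized counts in the DEN/HFD MCOPPB livers, 161, 159.6, 149.9 and 45.0 in the DEN/HFD saline livers, 51.0, 111, 61.4, 102 and 53.2 in the chow MCOPPB livers and 51.7, 45.8 and 19.0 in the chow saline livers. DEN/HFD saline 4 was again the lowest DEN/HFD liver. The log2 difference for DEN/HFD against chow with both treatments together was 0.80 ± 0.17 (limma adjusted p = 0.0296) and passed the threshold. It was 0.91 without DEN/HFD saline 4 (adjusted p = 0.00278). The call was lost with RIN as a covariate (0.94, adjusted p = 0.454) and without any 1 of DEN/HFD MCOPPB 2 and 3, DEN/HFD saline 1 to 3, chow MCOPPB 1 and chow saline 2 and 3 (adjusted p at most 0.0866). Of 8 monocyte and macrophage markers, 6 were tested in that comparison, 6 had positive differences and 1, Cd68, was called. Their summed level ranged from 883 to 1201 in DEN/HFD MCOPPB, 531 to 1139 in DEN/HFD saline, 633 to 802 in chow MCOPPB and 266 to 557 in chow saline livers. The sum of the 6 Kupffer cell markers ranged from 1652 to 3303 in DEN/HFD MCOPPB, 1272 to 3149 in DEN/HFD saline, 1408 to 2789 in chow MCOPPB and 688 to 1020 in chow saline livers. For DEN/HFD against chow with both treatments together, 4 of the 6 had positive and 2 negative differences and 0 were called. For MCOPPB against saline on chow, 6 of 6 Kupffer cell markers were positive, with a median of 0.93 and 0 called. The monocyte and macrophage markers were there also positive in 6 of 6 tested, with a median of 0.49 and 0 called. Of all tested genes, 50.1% were positive there. In that comparison Bcl2a1b had -0.05 ± 0.29 (95% interval -0.67 to 0.57) and Bcl2a1d -0.27 ± 0.26 (-0.83 to 0.29). Both intervals include 0, so these signs support no direction. Of 7 neutrophil markers, 2 were tested and 0 called, with sums of 39.0 to 109.6 in DEN/HFD MCOPPB, 23.5 to 136 in DEN/HFD saline, 7.48 to 75.2 in chow MCOPPB and 29.9 to 112 in chow saline livers. Of 7 T and NK cell markers, Cd3e and Trac were tested. Their differences were 0.36 and 0.34 with both treatments together (adjusted p = 0.363 and 0.315) and 0.68 and 0.66 in saline mice (unadjusted p = 0.0185 and 0.00985, adjusted p = 0.333 and 0.286). The sums of the 7 ranged from 27.2 to 82.1 in DEN/HFD MCOPPB, 28.4 to 129 in DEN/HFD saline, 21.9 to 57.8 in chow MCOPPB and 11.4 to 62.8 in chow saline livers, and Ncr1 of NK cells was at the lowest value in every library. Ptprc, the pan-leukocyte marker, differed by 0.21 ± 0.14 for DEN/HFD against chow with both treatments together (adjusted p = 0.506). The part of these cells in the Bcl2a1 values was not tested, and in bulk liver more cells of a type and more RNA per cell cannot be told apart.

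**Figure D3:**
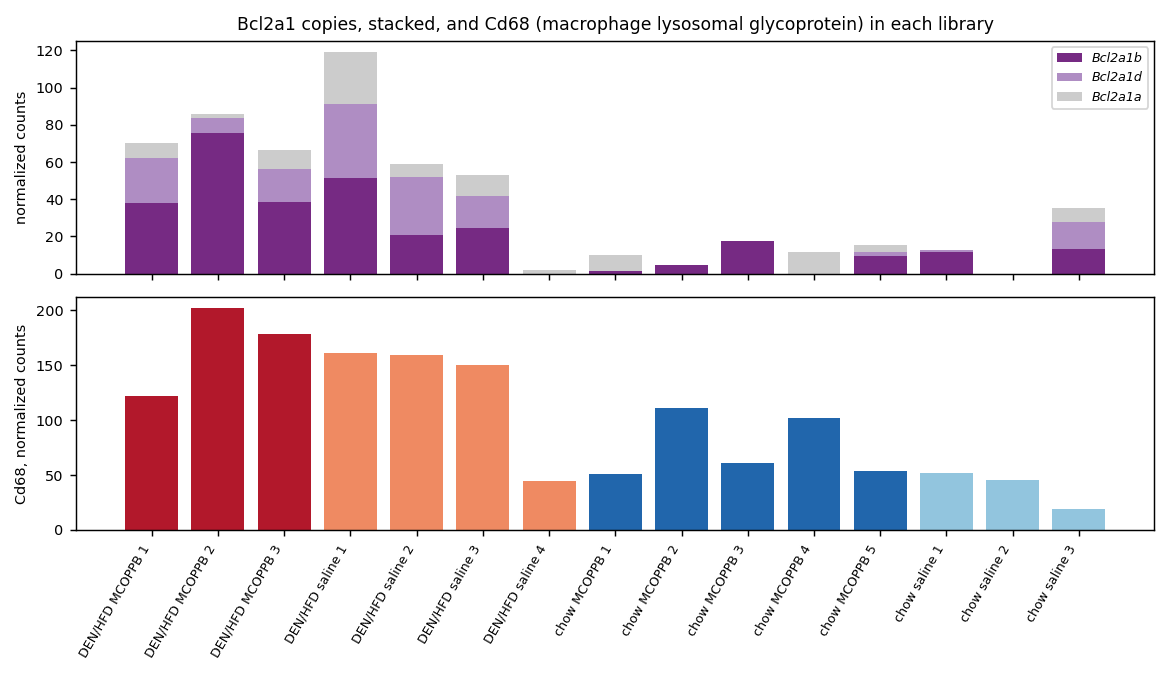
Normalized counts in each of the 15 libraries, in the upper panel for Bcl2a1b, Bcl2a1d and Bcl2a1a stacked and in the lower panel for Cd68. The stacked sum is 53 to 119 in the DEN/HFD livers other than DEN/HFD saline 4, which has 2.14, and 0 to 35.3 in the chow livers. Cd68 has 45.0 in DEN/HFD saline 4 and 122 to 202 in the other DEN/HFD livers.

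Of the effectors, Bok (ENSMUSG00000026278.14, chr1:93685660-93695764 on the plus strand), which encodes a BAX-like effector removed by endoplasmic reticulum-associated degradation, had 76.2, 37.9 and 57.7 normalized counts in the DEN/HFD MCOPPB livers, 65.1, 37.6, 65.1 and 35.4 in the DEN/HFD saline livers, 9.47, 19.8, 41.3, 19.9 and 22.9 in the chow MCOPPB livers and 26.5, 50.8 and 33.3 in the chow saline livers. The lowest values were those of chow MCOPPB livers, of which only chow MCOPPB 3 reached into the range of the DEN/HFD livers. Its log2 difference for DEN/HFD against chow was 0.56 ± 0.19 in MCOPPB mice (limma adjusted p = 0.216), 0.20 ± 0.19 in saline mice (adjusted p = 0.764) and 0.39 ± 0.14 with both treatments together (95% interval 0.10 to 0.68, adjusted p = 0.154). That for MCOPPB against saline was 0.08 ± 0.19 under DEN/HFD and -0.28 ± 0.19 on chow.

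Bak1 (ENSMUSG00000057789.14, chr17:27019810-27029009 on the minus strand), which encodes the effector BAK that MCL1 and BCL-XL restrain, had 73.8, 65.2 and 109 normalized counts in the DEN/HFD MCOPPB livers, 67.0, 71.7, 79.7 and 73.7 in the DEN/HFD saline livers, 70.3, 84.6, 69.4, 32.4 and 91.5 in the chow MCOPPB livers and 71.8, 76.5 and 46.6 in the chow saline livers. All groups overlapped, and chow MCOPPB 4 was lowest. The log2 difference for MCOPPB against saline was 0.09 ± 0.18 under DEN/HFD (95% interval -0.30 to 0.47) and 0.04 ± 0.18 on chow (-0.33 to 0.41), and for DEN/HFD against chow with both treatments together it was 0.12 ± 0.12 (-0.14 to 0.38).

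The BH3-only genes varied widely within groups. Bid (ENSMUSG00000004446.12, chr6:120891930-120916853 on the minus strand), whose product carries the death receptor signal to mitochondria in hepatocytes, had 74.4, 85.1 and 148 normalized counts in the DEN/HFD MCOPPB livers, against 93.7, 73.7, 119 and 140.0 in the DEN/HFD saline livers. On chow it had 71.2, 161, 88.0, 70.1 and 126 in the MCOPPB livers, against 100.02, 30.9 and 67.4 in the saline livers. The groups overlapped in both pairs. The log2 difference for MCOPPB against saline was -0.05 ± 0.23 under DEN/HFD and 0.38 ± 0.22 on chow (95% interval -0.10 to 0.85, limma adjusted p = 0.671), and that for DEN/HFD against chow with both treatments together was 0.20 ± 0.17.

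Bcl2l11 (ENSMUSG00000027381.16, chr2:128126038-128162547 on the plus strand), which encodes BIM, a BH3-only protein that binds all survival members, had 31.8, 24.7 and 37.7 normalized counts in the DEN/HFD MCOPPB livers, 14.3, 46.7, 17.5 and 70.2 in the DEN/HFD saline livers, 25.9, 34.4, 17.9, 34.1 and 45.9 in the chow MCOPPB livers and 41.7, 28.0 and 56.7 in the chow saline livers. Both the lowest and the highest value were those of DEN/HFD saline livers. Its log2 difference for MCOPPB against saline was -0.03 ± 0.22 under DEN/HFD and -0.17 ± 0.21 on chow, and that for DEN/HFD against chow with both treatments together was -0.06 ± 0.15.

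Over the 9 tested members, MCOPPB against saline had 4 positive and 5 negative differences under DEN/HFD with a median of -0.03 (49.3% of all tested genes were positive), and 3 positive and 6 negative differences on chow with a median of -0.12 (50.1%). In DEN/HFD against chow with both treatments together, 7 differences were positive and 2 negative, with a median of 0.12, beside 49.6% of all tested genes that were positive. The median over all tested genes lay within 0.01 of 0 in each of these comparisons. These medians include members that entered through the group where they were high and support no direction. The intervals of the survival members Mcl1, Bcl2l1 and Bcl2l2 for MCOPPB against saline ran from -0.55 to 0.42 under DEN/HFD and from -0.85 to 0.67 on chow.

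**Figure D4:**
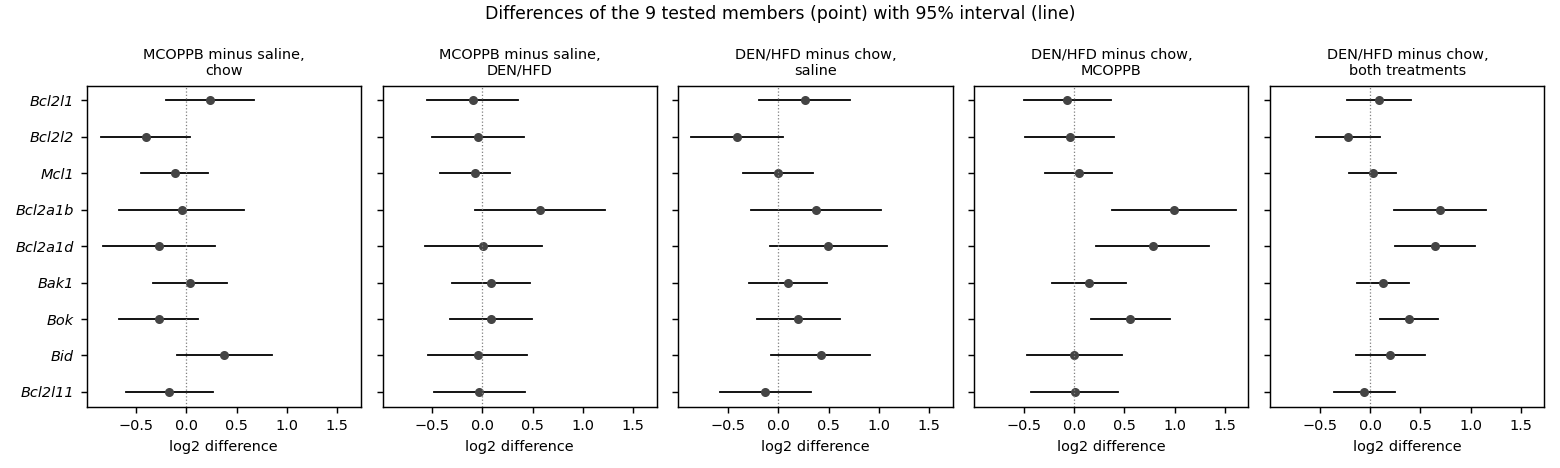
Log2 differences (horizontal axis, deposited scale) of the 9 tested members in 5 comparisons, each point with its 95% interval as a line and a dotted line at 0. Intervals clear of 0 appear for Bcl2a1b, Bcl2a1d and Bok in DEN/HFD against chow in MCOPPB mice and with both treatments together, where none had an adjusted p under 0.05.

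Other genes of the pathway were taken from 4 lists with 48 genes, of which 37 were tested: further BCL2 family genes, the executioners downstream of mitochondria, inhibitors of apoptosis, and death receptor and p53 inputs. In each of the 7 comparisons 0 of the 37 were called, with a smallest adjusted p of 0.0675, where the share called among all tested genes was 0.0259% to 1.32%. With both treatments together, 6 of the 37 had higher and 3 lower values under DEN/HFD at an unadjusted p under 0.05, beside 8.64% of all tested genes higher and 8.07% lower. Apaf1, the scaffold of the apoptosome, had 42.9, 12.8 and 12.5 normalized counts in the DEN/HFD MCOPPB livers, 23.1, 37.5, 82.5 and 3.88 in the DEN/HFD saline livers, 5.40, 2.42, 2.77, 0 and 7.58 in the chow MCOPPB livers and 1.66, 0 and 7.06 in the chow saline livers. The lowest DEN/HFD value was again that of DEN/HFD saline 4 and lay within the range of the chow livers, and the log2 difference was 0.72 ± 0.19 (limma adjusted p = 0.0675). Only DEN/HFD libraries reached the filter for Apaf1, so it entered the test through the group in which it was high. Apaf1 was called without DEN/HFD saline 4 (0.82, adjusted p = 0.0155) and with array weights (0.68, adjusted p = 0.0484), and had 0.54 with RIN as a covariate (adjusted p = 0.605). Bax, the effector that acts beside BAK, averaged 179 ± 59.8 normalized counts in DEN/HFD livers (SD, n = 7) and 105 ± 30.4 in chow livers (n = 8), with a log2 difference of 0.50 ± 0.16 (adjusted p = 0.119). It was called with array weights (0.59, adjusted p = 0.0445), and had 0.54 without DEN/HFD saline 4 (adjusted p = 0.0724).

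In the other comparisons the pathway genes with the smallest p were as follows. With MCOPPB against saline on chow they were Casp6, an executioner caspase (-0.59 ± 0.28, limma adjusted p = 0.553), and Htra2, a mitochondrial protease that binds inhibitors of apoptosis (-0.32 ± 0.17, adjusted p = 0.617). Under DEN/HFD they were Birc5, the mitotic inhibitor of apoptosis survivin (0.42 ± 0.27), and Bnip3, a hypoxia-induced mitophagy gene (-0.26 ± 0.18), both with an adjusted p of 1.00. With both diets together they were Casp6 (-0.43 ± 0.20, adjusted p = 0.761) and Bcl2l13 (0.22 ± 0.14, adjusted p = 0.899). In saline mice, for DEN/HFD against chow, they were Apaf1 (0.85 ± 0.28, adjusted p = 0.260) and Casp9, the caspase activated on APAF1 (0.51 ± 0.20, adjusted p = 0.333), and in MCOPPB mice Htra2 (0.56 ± 0.17, adjusted p = 0.158) and Birc5 (0.81 ± 0.26, adjusted p = 0.196). For the difference between both MCOPPB effects they were Vdac1, the channel of the outer membrane (-0.60 ± 0.28, adjusted p = 0.833), and Htra2 (0.49 ± 0.24, adjusted p = 0.835).

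Likeness of patterns was described by Pearson's r of the log2 levels over the 15 libraries, which differ in group, depth and RNA quality. Among the members, Bcl2a1b and Bcl2a1d were the most alike (r = 0.772), and how far shared reads enter this was not tested, followed by Bcl2l1 and Bak1 (0.748). The least alike were Bcl2a1b and Bcl2l11 (-0.406). Of 11559 other tested genes, the most like Bcl2a1b was Cd36, a fatty acid transporter (0.912), the most like Bcl2a1d was Dab2ip (0.925) and the most like Bok was Fitm1, a protein of lipid droplet formation (0.863). The others were Tnpo1 for Mcl1 (0.876), Akap13 for Bcl2l1 (0.866), Eea1 for Bcl2l2 (0.809), Tubgcp2 for Bak1 (0.832), Sec24a for Bid (0.895) and Setdb1 for Bcl2l11 (0.827). Each is the highest of 11559 values, so its size was chosen by the search.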

How the data were processed

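The authors deposited 1 table of variance-stabilised values on a log2 scale for 15 libraries, whose lowest value of 5.49 stands for 0 reads. The submitters' processing notes name GRCm38 (mm10) and the tools DESeq2, HTSeq, STAR 2.7.0e and Trimmomatic, in roles that are not stated. Per the labels' protocols, directional libraries came from 250 ng of RNA and were read as single reads of 75 nt. The transformation was inverted to normalized counts. Whole reads within 0.01 read made up 15.1% to 45.1% of low values per library, so reads were not recovered, depths are estimates, no counting interval is given and no count test was used.

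The members and lists were chosen with earlier results of these data known. Groups came from the titles and diet labels. Genes kept (11568) had 3 or more libraries at least 1 above that lowest value. limma 3.58.1 in R 4.3.3 fitted 4 group means over all libraries (trended eBayes, 11 residual degrees of freedom, median prior 6.34), and for comparisons over both diets or treatments an additive model. Tests were two-sided, with Benjamini-Hochberg adjustment over all kept genes, adjusted p values are limma's throughout, and ± is the SE of differences and the SD of levels. P values measure the spread between animals of 1 liver library each. The code was tested on simulated data. Named genes were all members, the 2 pathway genes with the smallest p per comparison and the most alike gene of each member. Cd68, Cps1, Ptprc and the other markers came from fixed lists, and those named singly were chosen after their values were seen. Alternatives were no filter, a stricter filter, 2 other log scales, quantile normalization, array weights, the compared groups alone, the first RIN value as a covariate, the replicate number as a block, and each library left out in turn.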

Additional observations from a re-analysis of the deposited data

Results flagged for a closer look

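Of 20 groups of 4 or 5 libraries looked at (10 members in 2 groups), 4 had a library far from the rest of its group by Dixon's criterion at the 95% level, and chance alone flags about 1 in 20 groups. Chow MCOPPB 4 had the lowest Bcl2 level of its group, 5.49 on the log2 scale or 0 normalized counts, where the other chow MCOPPB livers had 8.76 to 11. The same library had the lowest Bcl2l1 level of its group, 7.67 or 123 normalized counts. DEN/HFD saline 1 had the lowest Bcl2l1 level among DEN/HFD saline livers, 7.85 or 149.6 normalized counts. Chow MCOPPB 5 had the highest Bcl2a1d level of its group, 5.83 or 2.55 normalized counts, where the other 4 were at 0. With the others all at 0, any value above 0 is flagged, so this flag carries no weight.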

How the results depend on the processing

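The call of no member held in 6 of the 7 comparisons under all 9 other settings and with each of the 15 libraries left out. For DEN/HFD against chow with both treatments together, 1 member was called with array weights (Bcl2a1d), and the count ranged from 0 to 2 with each library left out, the 2 (Bcl2a1b and Bcl2a1d) without DEN/HFD saline 4. Member differences were recomputed for 34 results, which are not all members in all comparisons. No member was included for MCOPPB against saline with both diets together, and only Bcl2a1b for the difference between both MCOPPB effects. For DEN/HFD against chow within a treatment, only Bcl2a1b, Bcl2a1d and Bok were included. Of the 811 recomputed values, 768 kept their direction and their side of the threshold and 3 passed it. The other 40, from 12 of the 34 results, changed sign, the smallest limma unadjusted p among these being 0.264. For MCOPPB against saline on chow, the values that changed sign were 0.0201 for Bcl2l2, 0.31 for Bcl2a1b and -0.0626 for Bak1 with RIN as a covariate. The replicate block gave 0.11 for Bcl2a1b. For MCOPPB against saline under DEN/HFD they were 0.0280 for Bcl2l11 on log2(normalized count + 1), -0.0754 for Bcl2a1d on log2(normalized count + 10), -0.10 for Bcl2a1d and 0.0243 for Bid with array weights, and 0.0446 for Bcl2l2, -0.000375 for Bcl2a1d and 0.0271 for Bid with RIN, and the replicate block gave -0.13 for Bcl2a1d and 0.0699 for Bcl2l11. For DEN/HFD against chow with both treatments together they were -0.00656 for Bcl2l1 and -0.00119 for Mcl1 with array weights and -0.0528 for Mcl1 with RIN. With single libraries left out, sign changes occurred for MCOPPB on chow in Bak1 (-0.0738 to 0.16) and Bcl2a1b (-0.30 to 0.0908), under DEN/HFD in Bcl2l2 (-0.25 to 0.0616), Bcl2a1d (-0.27 to 0.17), Bak1 (-0.0380 to 0.17), Bok (-0.0320 to 0.21), Bid (-0.23 to 0.0735) and Bcl2l11 (-0.17 to 0.13), and for DEN/HFD against chow in Mcl1 (-0.0143 to 0.0513) and Bcl2l11 (-0.13 to 0.00373). The cause was not tested.

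Counts over all tested genes moved more. For DEN/HFD against chow with both treatments together, 153 genes were called, 0 to 392 under other settings (0 with RIN) and 6 to 460 with a library left out. For MCOPPB against saline on chow, 37 were called, 15 to 44 and 13 to 50. Under DEN/HFD 3 were called, 0 to 8 and 0 to 6. For DEN/HFD against chow, 6 were called in saline mice, 1 to 6 and 1 to 52 (52 without DEN/HFD saline 4), and 66 in MCOPPB mice, 0 to 285 and 18 to 157 (157 without DEN/HFD saline 4). That library is in neither group of the MCOPPB mice and acts there only through the spread shared by all groups. For the difference between both MCOPPB effects 8 were called, 2 to 10 and 2 to 12, and for MCOPPB with both diets together 43, 3 to 47 and 25 to 42. Cd68 also lost its call without the filter and with the replicate block (adjusted p = 0.0698 and 0.0676). The stricter filter left Bcl2a1d and Apaf1 without a value. Same-numbered libraries did not deviate together: of 19 pairs, 5 had residual correlations above 0.1, with a mean of -0.0273 beside 0.00838 for 64 other pairs. These correlations give no sign that the numbers pair the animals, but cannot exclude a shared cage or batch. The replicate block called 0 members in each comparison.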
